A study of Komagataella phaffii GS115 with 3 samples.

Results

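A set of 137 genes, of 5040 measured in Komagataella phaffii, stood at least 2-fold higher in the H2O2-treated library than in the untreated one. K. phaffii is a yeast that grows on methanol and was formerly named Pichia pastoris. In an hmt-deficient strain the level of these genes was at most 1.41-fold the untreated level, a limit set by the way they were chosen. The members were chosen by their measured values. A gene entered the set when its highest value in the 3 libraries reached 10 FPKM (sequenced fragments divided by gene length in kilobases and by library size), its log2 ratio of H2O2-treated to untreated was 1 or more, and its log2 ratio of hmt-deficient to untreated was under 0.5, each after adding 1 to the FPKM. All 137 therefore passed the minimum, as did 4998 of the 5040 genes, and the ratios that follow describe the choice and are not tests of it. The untreated sample was a regular culture of strain GS115, a histidine auxotroph used as an expression host. The second sample was GS115 exposed to hydrogen peroxide (H2O2), and the third was an hmt-deficient GS115 strain in regular culture without H2O2. Each group held 1 library, so no difference between conditions has a replicate check or a p-value. The sources used here do not give the H2O2 dose, its duration, the medium or which gene hmt stands for.

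H2O2 is an oxidant that yeast cells remove with catalases, peroxidases and the thioredoxin and glutathione systems, which draw on NADPH. In Saccharomyces cerevisiae the transcription factors Yap1 and Skn7 drive much of the transcriptional response to H2O2, and Msn2 and Msn4 drive a general stress response shared with other insults. Cells under oxidative stress also change the use of their central carbon metabolism. The tables used pair no locus tag with a gene name or product, so members are named by locus tag and no role is given to any of them.

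The libraries corresponded to 15358142 fragments for untreated, 22355493 for H2O2-treated and 18281697 for hmt-deficient GS115, as recovered from the values. Intervals below are exact 95% intervals of a fold in FPKM and cover counting error only. Over the 4998 genes past the minimum the median log2 ratio to untreated was -0.38 for H2O2-treated and -0.07 for hmt-deficient GS115. Both ratios divide by the same untreated library, so an untreated value that happened to be low would raise both.

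Of the 4998 genes, 8.96% were at least 2-fold higher after H2O2, which is 448 genes, and 77.5% had a log2 ratio under 0.5 in the hmt-deficient strain. The set makes up 2.74% of the 4998 genes and 30.6% of the 448. The 448 genes had log2 ratios of hmt-deficient to untreated from -1.44 to 7.40, with genes on both sides of the limit of 0.5. Of them 62 lay between 0 and 0.5, which is 5.20% of all genes with such a ratio, and 68 lay between 0.5 and 1 (11.9%). Above these, 114 lay between 1 and 2 (29.4%) and 129 at 2 or more (77.7%). On the low side, 51 lay between -0.5 and 0 (3.88%), 21 between -1 and -0.5 (2.58%), and 3 under -1 (0.54%). The share of genes at least 2-fold higher after H2O2 was thus greater in each higher class of the hmt-deficient ratio, and both ratios share the untreated denominator.

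**Figure D1:**
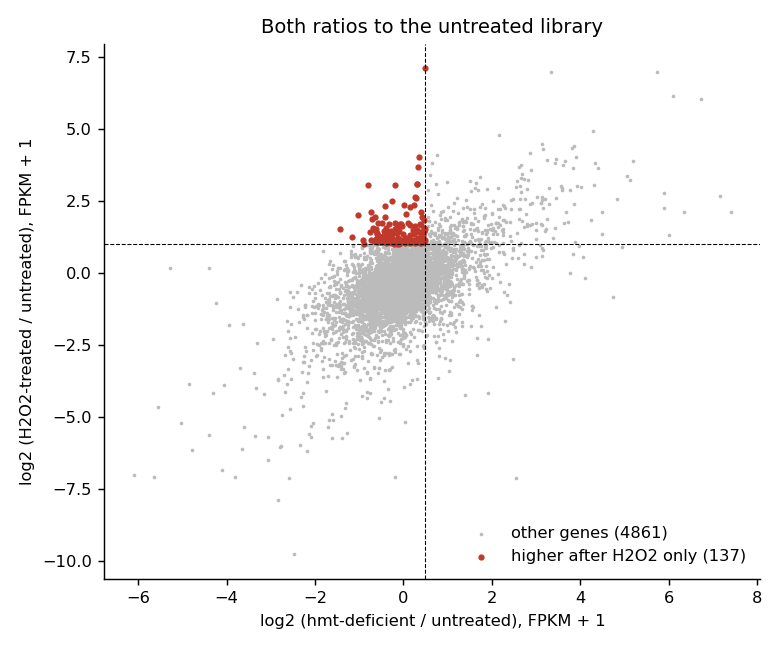
Log2 ratio of H2O2-treated to untreated (vertical) against log2 ratio of hmt-deficient to untreated (horizontal), each on FPKM plus 1, for 4998 genes with 10 FPKM or more in at least 1 library. Red points are the 137 genes of the set and dashed lines are its limits at 1 and 0.5. The red points border grey ones across both dashed lines. The highest red point, at 7.10, lies far above the next red point at 4.01. Among the grey points, a gene at least 2-fold higher in both comparisons reaches 6.98.

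In the untreated library the 137 genes had a median level of 159.6 FPKM, with a range of 9.55 to 5330 FPKM. After H2O2 their median was 560.5 FPKM (21.6 to 27518), and in the hmt-deficient strain it was 169.5 FPKM (5.95 to 6263). Over all 4998 genes the medians were 70.6, 51.6 and 68.9 FPKM in the same order. Summed over the members, FPKM came to 7.15% of the untreated total, 23.6% of the H2O2-treated total and 7.37% of the hmt-deficient total. Of the 100 highest genes of each library, members were 8 untreated, 36 after H2O2 and 8 with hmt deficiency. Of the 10 highest genes they were 1, 6 and 2 in that order. The set makes up 2.74% of the 4998 genes. Because the rule picks genes that are high after H2O2, the greater shares in that library follow at least in part from the choice.

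Most members were only moderately higher after H2O2. The log2 ratio lay between 1 and 1.5 for 93 of the 137 genes, between 1.5 and 2 for 26, between 2 and 3 for 11, and at 3 or more for 7. At the 4-fold level the set held 18 genes, or 13.1%, beside 29.2% of the 448 genes at least 2-fold higher after H2O2 and 2.62% of all 4998 genes; the rule itself fixes the excess over all genes. The fewest fragments of any member were 82 untreated, 450 after H2O2 and 56 with hmt deficiency. For 113 of the 137 genes the counting interval of the H2O2 fold lay wholly above 2-fold. The rule chose genes by these same values, so this count describes the choice and is no check of it. It was not made over all genes.

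The gene with the highest ratio was PAS_chr2-1_0016. It stood at 19.7 FPKM in untreated GS115, 2845 FPKM after H2O2 and 27.9 FPKM in the hmt-deficient strain. Its level placed it at rank 4659 of 5040 untreated and at rank 75 after H2O2. The hmt-deficient level was 1.41-fold the untreated one (interval 1.19 to 1.69), a log2 ratio of 0.48 that lies just inside the limit of 0.5. It left the set when each library was rescaled to 1 fixed total (TPM), when ratios were centred on their medians, when libraries were scaled without the 20 highest genes, and with the authors' normalized column for the hmt-deficient library, since each of these moves that ratio past 0.5. Its level after H2O2 was 102-fold the hmt-deficient level (91.9 to 114).

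The next 6 genes by ratio were 8.17-fold to 16.2-fold higher after H2O2. PAS_chr3_0826 stood at 1095 FPKM untreated, 17695 FPKM after H2O2 and 1395 FPKM in the hmt-deficient strain, a 16.2-fold difference with H2O2 (15.9 to 16.5). PAS_chr2-2_0288 stood at 33.0, 431 and 41.9 FPKM in the same order of libraries, 13.1-fold higher after H2O2 (11.9 to 14.3). Both were also somewhat above untreated in the hmt-deficient strain, by 1.27-fold each, and both left the set with the authors' normalized column for the hmt-deficient library.

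PAS_chr3_0188 stood at 1015 FPKM untreated, 8659 FPKM after H2O2 and 1263 FPKM in the hmt-deficient strain, and was 8.53-fold higher after H2O2 (8.43 to 8.64). PAS_chr1-4_0292 stood at 1226, 10386 and 1530 FPKM, 8.47-fold higher (8.36 to 8.59). PAS_chr1-1_0072 stood at 1591, 13008 and 1391 FPKM, 8.17-fold higher (8.07 to 8.28). These 3 genes were already among the 200 highest of the untreated library, at ranks 192, 148 and 113, and were at ranks 9, 7 and 6 after H2O2. With the authors' normalized column for the hmt-deficient library PAS_chr3_0188 and PAS_chr1-4_0292 left the set as well, so that the 5 highest ratios all lose membership there. That setting raised the hmt-deficient values 1.14-fold and left the untreated and H2O2-treated values as FPKM, so it could only raise the hmt-deficient ratio. PAS_chr2-1_0454 differed from them in its hmt-deficient level. It stood at 117.5 FPKM untreated and 967.7 FPKM after H2O2 but at 66.8 FPKM in the hmt-deficient strain, 1.76-fold under the untreated level (1.65 to 1.88).

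The other 8 of the 15 highest ratios lay between 4.55-fold and 6.27-fold, and 1 of them, PAS_chr2-1_0437, is described with the most abundant genes. PAS_chr4_0624 stood at 649.9 FPKM untreated, 4075 FPKM after H2O2 and 786.3 FPKM in the hmt-deficient strain. PAS_chr1-4_0047 stood at 119.3, 732.3 and 144.7 FPKM, and PAS_chr1-1_0382 at 482.5, 2723 and 402.7 FPKM, in the same order. In these 3 genes the hmt-deficient level was within 1.21-fold of the untreated one in either direction. PAS_chr2-2_0034 stood at 68.3, 351.7 and 69.3 FPKM, and its hmt-deficient to untreated interval of 0.93 to 1.11 included 1. PAS_chr2-1_0893 stood at 49.8, 244.5 and 55.5 FPKM, with an interval of 0.97 to 1.28 that also included 1. In both of these genes counting error alone could not tell the hmt-deficient level from the untreated one.

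PAS_chr3_0456 stood at 544.7 FPKM untreated, 2722 FPKM after H2O2 and 410.9 FPKM in the hmt-deficient strain. PAS_chr1-4_0374 was the lowest gene of this group, at 13.7, 62.3 and 7.85 FPKM, and its fold of 4.55 after H2O2 had the widest interval of the 8, 3.60 to 5.81. Both were under the untreated level in the hmt-deficient strain.

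**Figure D2:**
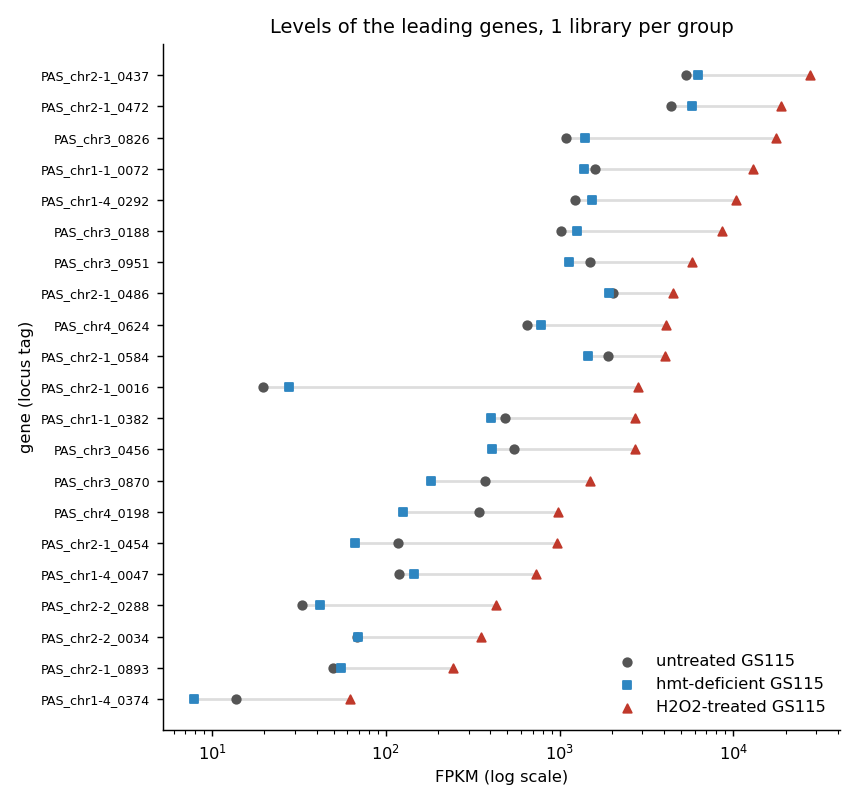
FPKM on a log scale of 21 members in the 3 libraries, 1 library per group: the members with the 15 highest ratios of H2O2-treated to untreated, the 10 highest levels after H2O2 and the 10 highest ratios of H2O2-treated to hmt-deficient, ordered by level after H2O2. Triangles (H2O2-treated) lie to the right of both other libraries for each gene, and squares (hmt-deficient) lie on either side of the circles (untreated).

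Of the 100 most abundant transcripts of the H2O2-treated library 36 were members, a share that the rule itself raises. PAS_chr2-1_0437 was the highest gene of that library at 27518 FPKM, beside 5330 FPKM untreated and 6263 FPKM in the hmt-deficient strain, where it ranked 9 and 7. It was 5.16-fold higher after H2O2 (5.13 to 5.20). PAS_chr2-1_0472 held rank 3 at 18736 FPKM, beside 4383 and 5795 FPKM, 4.27-fold higher after H2O2 (4.24 to 4.31). With PAS_chr3_0826, PAS_chr1-1_0072, PAS_chr1-4_0292 and PAS_chr3_0188 they are the 6 highest members, which together held 1.44% of the untreated total, 8.96% of the H2O2-treated total and 1.89% of the hmt-deficient total. Scaling the libraries without the 20 highest genes of any of them kept 117 of the 137 members.

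Of the other 4 of the 10 highest members after H2O2, PAS_chr4_0624 is described above, and the remaining 3 held ranks 12, 18 and 28 of the H2O2-treated library. PAS_chr3_0951 stood at 1504 FPKM untreated, 5797 FPKM after H2O2 and 1136 FPKM in the hmt-deficient strain, 3.86-fold higher after H2O2 (3.80 to 3.91). PAS_chr2-1_0486 stood at 2023, 4502 and 1927 FPKM, 2.23-fold higher (2.18 to 2.27). PAS_chr2-1_0584 stood at 1908, 4070 and 1453 FPKM, 2.13-fold higher (2.10 to 2.17). The first and the last of these 3 were lower in the hmt-deficient strain than untreated, by 1.32-fold (1.30 to 1.35) and 1.31-fold (1.28 to 1.34).

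Within the set the hmt-deficient library lay on both sides of the untreated one. The log2 ratio of hmt-deficient to untreated ran from -1.44 to 0.48 with a median of -0.08, beside -0.07 over all 4998 genes. Within 0.25 of 0 were 51 of the 137 genes (37.2%), beside 27.3% of all genes. The rule itself raises that share, because it leaves out every ratio of 0.5 or more. The 1363 genes within 0.25 of 0 all lay among the 3872 genes with a ratio under 0.5. The counting interval of the hmt-deficient to untreated fold lay wholly below 1 for 70 members, wholly above 1 for 51 and included 1 for 16. These intervals were not counted over all genes, and the rule cuts off the upper side, so the split is no trait of the set. The name of the set therefore holds as its rule is written, with an upper limit of 1.41-fold, and not as absence of any difference in the hmt-deficient strain. At the low end, 3 members (2.19%) were at least 2-fold lower than untreated in the hmt-deficient strain, beside 11.0% of all genes. PAS_chr4_0198 had the lowest ratio, at 342.0 FPKM untreated, 977.4 FPKM after H2O2 and 125.4 FPKM in the hmt-deficient strain, 2.73-fold under untreated (2.57 to 2.90).

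The direct ratio of H2O2-treated to hmt-deficient does not use the untreated library, but the rule sets a lower limit for it. Among the members 112 (81.8%) were at least 2-fold higher after H2O2 than in the hmt-deficient strain, beside 6.46% of all genes. At 4-fold they were 29 of the 45 such genes, which are 0.9% of all genes. PAS_chr3_0870 was 8.27-fold higher in this comparison (7.99 to 8.56), at 1505 against 182.1 FPKM, with 373.8 FPKM untreated. PAS_chr4_0198 was 7.79-fold higher (7.39 to 8.23). PAS_chr2-1_0454 had the second highest ratio to the hmt-deficient library among members, at 14.5-fold (13.8 to 15.3).

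Members were unevenly spread over untreated levels. Of the genes under 50 FPKM untreated 1.42% were members, of those at 50 to 200 FPKM 47 of 2345, of those at 200 to 1000 FPKM 5.14%, and of those at 1000 FPKM or more 14.9%, which is 29 of 194 genes. In the last class 31 genes were at least 2-fold higher after H2O2, and 29 of the 31 (93.5%) were members. In the class under 50 FPKM members were 25 of 204 such genes (12.3%). The 243 genes at least 2-fold higher in both comparisons, 4.86% of all, ran the other way, with 147 under 50 FPKM and 1 at 1000 FPKM or more. The untreated level is the denominator of both ratios, and the share of genes with an hmt-deficient log2 ratio under 0.5 was itself 66.7% in the lowest class and 91.2% in the highest. How much of the difference this accounts for was not tested.

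Coding length also varied with membership. The median coding length of the members was 930 bp (294 to 5499), beside 1200 bp over all 4998 genes and 1182 bp for the 243 genes higher in both. From the shortest to the longest of 5 bins of coding length, 3.60%, 4.83%, 2.69%, 1.80% and 0.80% of genes were members. All genes at least 2-fold higher after H2O2 came to 8.90%, 12.1%, 10.5%, 9.28% and 4.10% in these bins. The median log2 ratio of all genes shifted with length in both comparisons. It went from -0.29 in the shortest to -0.65 in the longest bin after H2O2, and from -0.39 to 0.11 in the hmt-deficient strain. The part of these shifts in the lengths of the members was not tested.

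**Figure D3:**
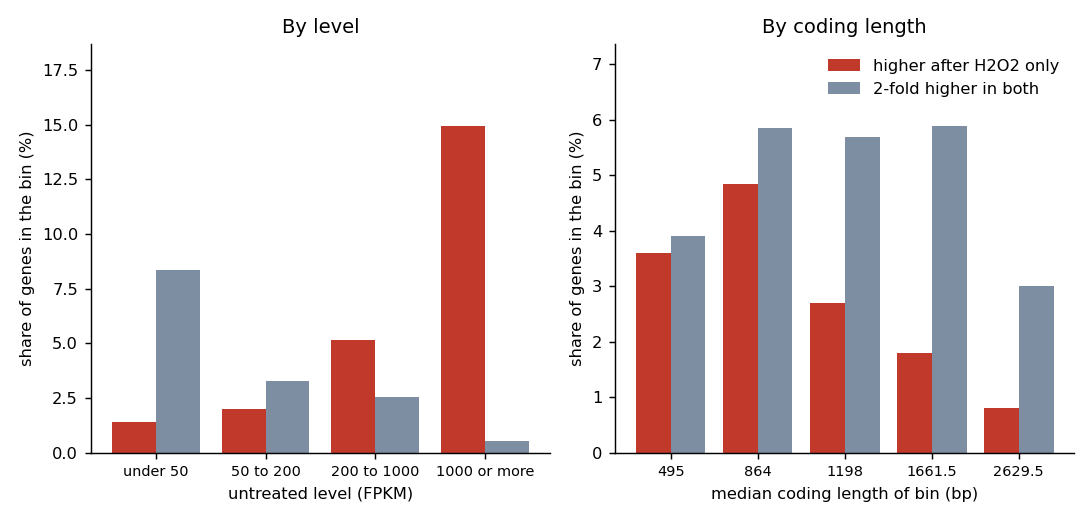
Share of the genes in each class (percent, vertical axes from 0) that belong to the 137 genes higher after H2O2 only (red) or to the 243 genes at least 2-fold higher in both comparisons (grey), by untreated FPKM (left) and by bin of coding length, labelled with its median in bp (right). From the lowest to the highest untreated class the red bars go from 1.42% to 14.9% and the grey bars from 8.36% to 0.52%, and the red share is 0.80% in the bin of longest genes.

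The members were scattered over the chromosomes. Chromosome 1 held 38 members (2.50% of its genes past the minimum), chromosome 2 held 40 (3.02%), chromosome 3 held 24 (2.02%) and chromosome 4 held 35 (3.62%). None of the 36 genes past the minimum that lie among the 5 outermost at a chromosome end was a member. These are 0.72% of the 4998 genes, of which the set makes up 2.74%, so too few lie there to read an absence from it. Among the 20 outermost there were 3 members (2.19%), beside 3.10% of all genes and 22 of the 243 genes higher in both (9.05%). They were PAS_chr2-1_0016 at position 15 from an end, PAS_FragD_0010 at position 6 and PAS_c131_0011 at position 10. PAS_FragD_0010 stood at 49.7 FPKM untreated, 128.5 FPKM after H2O2 and 58.7 FPKM in the hmt-deficient strain, and PAS_c131_0011 at 1295, 2769 and 1034 FPKM; the latter 2 genes were named after their values were seen.

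Next to another member lay 10 members (7.30%), in 5 pairs, beside 270 of all 4998 genes (5.40%) that had a member as neighbour. PAS_chr4_0413 stood at 1790 FPKM untreated, 3622 FPKM after H2O2 and 1365 FPKM in the hmt-deficient strain, and its neighbour PAS_chr4_0414 at 1867, 3921 and 1616 FPKM. This pair had similar levels in all 3 libraries. PAS_chr1-3_0226 stood at 359.7, 776.0 and 373.3 FPKM beside PAS_chr1-3_0227 at 259.7, 579.1 and 239.2 FPKM. In the pair PAS_chr4_0197 and PAS_chr4_0198 both genes were also lower in the hmt-deficient strain than untreated, the first at 283.1, 727.5 and 186.8 FPKM. PAS_chr3_0709 and PAS_chr3_0710 had the opposite sign there, at 126.2, 323.6 and 169.5 FPKM and at 682.9, 1903 and 943.1 FPKM. The last pair, PAS_chr4_0522 and PAS_chr4_0524, differed widely in level, at 71.9, 152.8 and 70.5 FPKM against 1303, 3598 and 1215 FPKM.

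The 260 other genes that lay directly beside a member and passed the minimum had a median log2 ratio after H2O2 of -0.36, beside -0.42 over all 4861 genes outside the set. At least 2-fold higher were 16 of the 260 (6.15%), about the share among all genes outside the set (311 of 4861). None of the 137 members overlapped an adjacent gene in the reference table, beside 149 of the 4998 genes (2.98%).

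**Figure D4:**
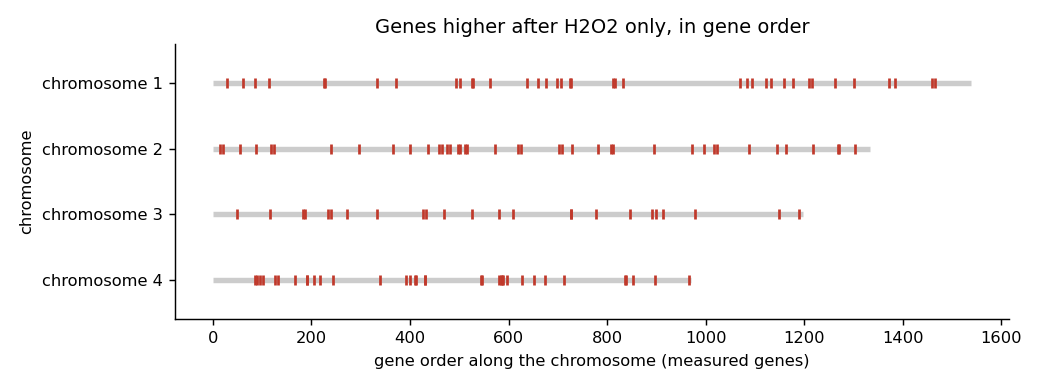
Positions of the 137 genes (red ticks) in the order of measured genes along chromosomes 1 to 4 (grey bars; horizontal axis, gene number along the chromosome). The ticks are spread along all 4 chromosomes, with 38, 40, 24 and 35 members, and 5 pairs are direct neighbours.

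The genes on both sides of each limit were close in value. The members nearest to the H2O2 limit were PAS_chr3_0054 (log2 ratio 1.00; 1805 FPKM untreated, 3619 FPKM after H2O2, 1569 FPKM hmt-deficient), PAS_chr3_0890 (1.01; 762.8, 1533 and 414.3 FPKM) and PAS_chr4_0953 (1.01; 474.4, 955.7 and 426.2 FPKM). Just outside were PAS_chr2-1_0272 (58.3, 117.3 and 69.2 FPKM), PAS_chr3_0224 (44.6, 90.0 and 59.2 FPKM) and PAS_chr4_0041 (743.3, 1482 and 464.1 FPKM), with log2 ratios of 1.00, 1.00 and 0.99. At the hmt-deficient limit the nearest members were PAS_chr2-1_0415 (182.6, 403.8 and 255.9 FPKM), PAS_chr4_0393 (75.5, 219.2 and 106.0 FPKM) and PAS_chr2-1_0016, each with a log2 ratio of 0.48. PAS_chr2-2_0168 (156.0, 415.1 and 223.5 FPKM), PAS_chr1-4_0373 (13.2, 28.9 and 19.6 FPKM) and PAS_chr4_0516 (114.9, 850.0 and 168.4 FPKM) were just outside, at 0.52, 0.54 and 0.55. PAS_chr4_0516 was 4-fold or more higher after H2O2 and is left out by the hmt-deficient limit alone. The members with the lowest peak level were PAS_chr4_0556 (9.55, 21.6 and 8.90 FPKM), PAS_chr4_0090 (11.9, 28.4 and 15.5 FPKM) and PAS_chr4_0329 (9.66, 29.6 and 5.95 FPKM), and no gene under 10 FPKM met the other limits.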

How the data were processed

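The values were FPKM per gene, deposited by the authors and so named per the file headers, for 1 library per group. Per the labels' protocols, total RNA was depleted of ribosomal RNA and made into stranded libraries. HISAT2, HTSeq, featureCounts, Trimmomatic 0.39 and FastQC 0.12.1 are listed, without roles, per the submitters' processing notes; the sources used here give no genome build, annotation or strand setting for counting. Untreated values carry more decimals than the others, which are rounded to 2. Coding lengths and gene order came from RefSeq assembly ASM2700v1, which holds all 5040 locus tags and no other symbols; 0 of 24 gene lists matched, and no promoter or protein sequences were used. Multiplying FPKM by length gave whole fragments (within 0.1) for 96.8%, 96.2% and 96.8% of 3557, 1132 and 1597 genes checked (untreated, then H2O2-treated, then hmt-deficient), under 3000 fragments and with lengths divisible by 3. Of the 137 members 16 have lengths not divisible by 3, beside 393 of the 5040 genes, so their fragments were not checked. They include PAS_chr4_0198 and PAS_chr2-1_0584. Intervals of folds are Clopper-Pearson intervals on the recovered fragments (scipy 1.17.1). They were tried on counts simulated from the model that they assume, which checks the code only. Such intervals leave out variation between cultures.

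The members and lists were chosen with earlier results of these data known. Named genes were the 15 highest ratios after H2O2, the 10 highest levels after H2O2, the 10 highest ratios to the hmt-deficient library, members beside another member, and 3 genes on each side of each limit. Log2 ratios used a pseudocount of 1, which understates the change of low genes. Alternatives were other pseudocounts, minima, limits and scalings. The setting with the authors' normalized column replaced the hmt-deficient values only. A normalized column also exists for the H2O2-treated library and was not used. Leaving out untreated values with 3 or fewer decimals was added after seeing the data.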

Additional observations from a re-analysis of the deposited data

How the results depend on the processing

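The number of members depended most on scaling and on the limits. Centring both ratios on their medians gave 304 genes in place of 137, of which 123 were shared, and 782 in place of 448 genes at least 2-fold higher after H2O2; by construction this removes the median shift of -0.38. An H2O2 limit of 2 gave 18 genes and an hmt-deficient limit of 0 gave 75, both stricter by construction. Rescaling to TPM gave 98 genes, the authors' normalized column for the hmt-deficient library 106, and scaling without the 20 highest genes 124. The other settings gave between 132 and 205, and the 9 untreated values with 3 or fewer decimals included 0 members. Under 6 pseudocount and scaling alternatives together, 87 of the 137 members (63.5%) stayed in the set each time, and 10 of the 15 with the highest ratios. The 5 that did not were PAS_chr2-1_0016, PAS_chr3_0826, PAS_chr2-2_0288, PAS_chr3_0188 and PAS_chr1-4_0292, the last 4 lost only under the authors' normalized column. Of 304 alternative values for 38 named genes, 161 stayed within the counting interval and 143 moved, with a largest shift of 0.48 on the log2 scale. None changed sign, but the rule keeps these ratios above that shift, so this outcome was fixed by the choice. These values cover the other pseudocounts, TPM and median centring. They leave out the authors' normalized column and the scaling without the 20 highest genes. Median centring shifts every gene of a comparison by the same amount, and TPM nearly so. Whether a value moved under TPM or centring thus reflects how narrow its counting interval is, and not how stable that gene is. No paired analysis was possible because each group holds 1 library, and for the same reason no replicate could be left out. A gene of median length at 10 FPKM rests on 183.9 fragments untreated, 267.7 after H2O2 and 218.9 with hmt deficiency, which limits the precision of the lowest members.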
